A study of Danio rerio with 12 samples.

Results

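Cells without EGFP fluorescence (GFP-) from *sqet31Et* hearts were compared between 48 and 72 hpf, to see how the part of the heart preparation outside the EGFP domain changed with age. The comparison used the 6 libraries whose labels give the GFP- fraction, 3 at 48 hpf and 3 at 72 hpf, out of 12 libraries in the series. In *sqet31Et*, an enhancer trap inserted with a Tol2 transposon, EGFP under a basal *krt4* promoter marks the atrioventricular canal (AVC), from 72 hpf also the bulbus arteriosus (BA), and weakly some myocardium. Every library, GFP- included, came from pools of dissected hearts of this same line that were dissociated with trypsin and sorted, with the gate set on hearts lacking the transgene. GFP- is therefore a gate and not a cell type. Weakly fluorescent myocardium can fall on either side of it. The other 6 libraries are the GFP+ cells of the same 2 stages and served only for the test of whether a change differed between the fractions. How independent the 3 libraries of a group are was not settled by the sources used here, so the spread between them may be technical.

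Between these stages the zebrafish heart tube has looped and beats, its chambers grow, endocardial cushions at the AVC are remodelled into valves under blood flow, and smooth muscle forms around the BA. Apart from cardiomyocytes and endocardium, a dissected heart holds epicardium and circulating blood cells, and small organs near it, such as liver, pharyngeal cartilage, skin and eye, can come along during dissection. At this age photoreceptors, hepatocytes and pancreatic acinar cells mature in the embryo, while many neural and retinal progenitors leave the cell cycle.

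The 6 libraries held between 20530602 and 45035663 counts and 24977 to 26528 detected genes. One library stood apart. In replicate 1 of 72 hpf the 10 most counted genes took 21.0% of all counts against 5.11% to 8.43% in the other 5 GFP- libraries, and globin genes alone took 16.2% against 0.489% to 2.97%. Its TMM scaling factor was 0.573, while those of the others were 1.03 to 1.21. Across genes its Spearman correlation with replicates 2 and 3 was 0.932 and 0.903, against 0.971 between those replicates. Counts and medians of gene lists are therefore given with and without this library, and single genes where it changed the call or moved a called fold change by over 1.5 times. The label of heart cells held only in part. At 48 hpf the summed level of 16 cardiomyocyte markers was 94.0 to 469 CPM in GFP- against 4133 to 7846 CPM in GFP+ cells, on the scale of all 12 libraries. In GFP- at that stage 46 genes of neurons and synapses summed to 3849 to 5929 CPM, and endothelial and endocardial markers to 1169 to 3685 CPM. In replicates 1, 2 and 3 of GFP- at 72 hpf, cardiomyocyte markers took 0.0828%, 0.0820% and 0.0530% of counts. Neuron and synapse genes took 0.0600%, 0.0859% and 0.271%, liver genes 0.0930%, 0.133% and 0.150%, and endothelial and endocardial markers 0.194%, 0.567% and 0.456%. None of the 16 cardiomyocyte or 29 endothelial markers was at 0 in all libraries of a stage.

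Of 22080 genes tested, 4363 (19.8%) were higher and 3615 (16.4%) were lower at 72 hpf, with an adjusted p-value (padj) below 0.05 by edgeR's quasi-likelihood test with Benjamini-Hochberg adjustment and an absolute log2 fold change (log2FC) above 1. Without replicate 1 of 72 hpf, 4488 were higher and 4162 were lower, of which 3727 and 3497 were shared with the calls from all 6 libraries. No gene called in one of these fits was called in the opposite direction in the other. The count moved most with the 48 hpf libraries: 2017, 2457 and 2147 genes were higher and 1601, 1823 and 1783 lower when replicates 1, 2 and 3 of that stage were left out, and 1892 were lower without replicate 2 of 72 hpf. In a simulation with the spread of these libraries, 200 of 22080 genes, all above 1 CPM at 48 hpf, were changed. Counts were drawn independently, without the shift of replicate 1 of 72 hpf. The test recovered 0% of genes changed by 1, 26.9% of genes changed by 2 and 75.8% of genes changed by 3 in log2 units. Far more genes were called in the data, which makes the adjusted threshold less strict, so recovery there may be higher. When libraries were scaled by their totals and not by TMM, this lowered the median log2FC of all genes from 0.11 to -0.15 and left 2332 higher and 2149 lower. The median of 0.11 is the level against which the changes of gene lists below can be read.

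**Figure D1:**
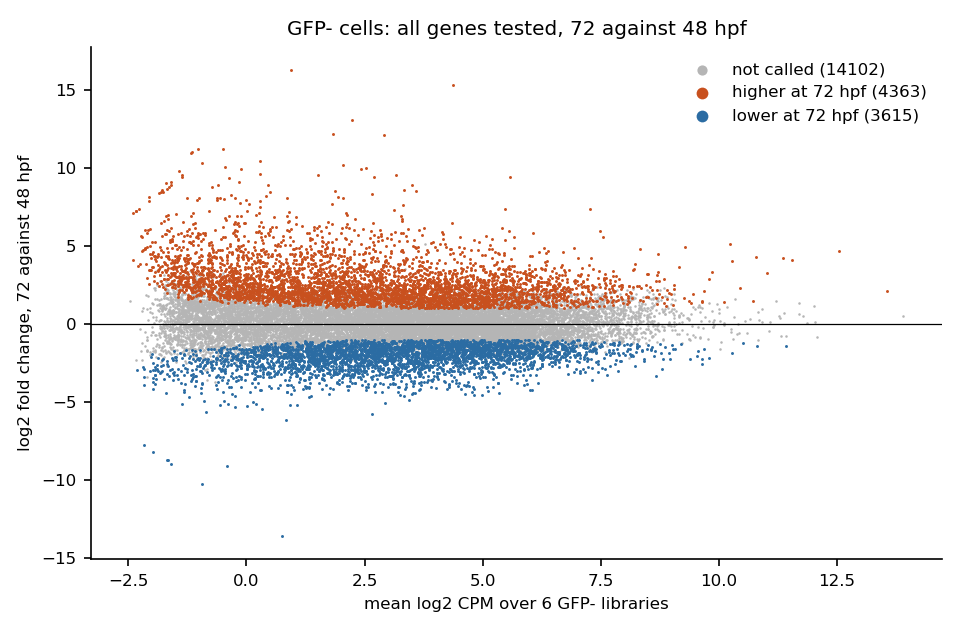
Log2 fold change between 72 and 48 hpf against mean log2 CPM in GFP- cells, 1 point per gene tested. Orange points are the 4363 genes higher and blue points the 3615 genes lower at 72 hpf by the thresholds given above.

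The largest rises among well expressed genes were of mixed kind and included muscle, photoreceptor and liver transcripts. *fbp2* (ENSDARG00000012366), a fructose-bisphosphatase of muscle, had only 9 counts in all 3 libraries at 48 hpf, or 0.0251, 0.107 and 0.129 CPM (counts scaled to the library size after TMM normalization) in replicates 1, 2 and 3, and 6585, 2082 and 2092 CPM at 72 hpf. Its fitted log2FC of 15.30 (SE 1.09, padj = 0.00061) rests on those 9 counts and was 14.51 without replicate 1 of 72 hpf. The smooth muscle actin gene *acta2* (ENSDARG00000045180) went from 1.43, 3.16 and 1.12 CPM to 1627, 1354 and 971 CPM, a log2FC of 9.43 (SE 0.72, padj = 0.00066). In both genes every 72 hpf library lay far above every 48 hpf library. The rule that chose the largest rises and falls required stages that do not overlap, so a lack of overlap was fixed by the choice. Without replicate 1 of 72 hpf the log2FC of *acta2* was 9.20.

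Transcripts of cones, the photoreceptors of daylight, followed. *OPN1SW* (ENSDARG00000045677), a short-wave cone opsin, was measured at 0.526, 0.188 and 0.257 CPM at 48 hpf (36 counts in all) and 211, 132 and 396 CPM at 72 hpf, with a log2FC of 9.55 (SE 0.76, padj = 0.00071). For the blue cone opsin *opn1sw2* (ENSDARG00000017274) the values were 0.727, 0.402 and 0.739 CPM and 190.3, 171 and 334 CPM, with a log2FC of 8.53 (SE 0.60, padj = 0.00061). *GNGT2* (ENSDARG00000103543), a transducin gamma subunit of cones, stood at 0.175, 0.107 and 1.99 CPM and 558, 109 and 217 CPM (log2FC 8.62, padj = 0.0038, and 7.76 without replicate 1 of 72 hpf). A second *GNGT2* gene (ENSDARG00000010680) was already at 48.7, 18.4 and 55.1 CPM at 48 hpf, and at 187, 45.6 and 102 CPM at 72 hpf. Its groups overlapped and it did not pass (log2FC 1.45, padj = 0.086). A lack of overlap between the stages was part of the rule that chose *OPN1SW*, *opn1sw2* and the first *GNGT2* gene. Replicate 3 was the highest 72 hpf library for both opsins, and the globin-rich replicate 1 for *GNGT2*.

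Genes of metabolism and secreted proteins followed. Urate oxidase, *uox* (ENSDARG00000007024), a peroxisomal enzyme of hepatocytes, rose from 1.23, 0.965 and 0.225 CPM to 293, 98.0 and 86.2 CPM (log2FC 7.60, SE 0.87, padj = 0.0018). The apolipoprotein gene *apoa2* (ENSDARG00000015866) rose from 12.7, 22.5 and 6.65 CPM to 4487, 1373 and 1098 CPM (log2FC 7.38, SE 0.88, padj = 0.0019). *vipb* (ENSDARG00000079443), which encodes a vasoactive intestinal peptide precursor, rose from 0.676, 0.188 and 1.32 CPM to 858, 108 and 88.4 CPM (log2FC 8.92, padj = 0.0031). In these 3 genes replicate 1 of 72 hpf was the highest library, most of all for *vipb*, whose log2FC fell to 7.05 without it while padj became 8.9e-05. The log2FC of *uox* and *apoa2* were then 6.76 and 6.43. The LIM protein gene *crip1* (ENSDARG00000053858) and the osteopontin gene *spp1* (ENSDARG00000044276), whose product is a secreted phosphoprotein of bone and macrophages, had log2FC of 7.35 and 7.29, and 5.8 and 6.86 without that library.

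The largest falls were led by genes of neural cells. The cadherin *CELSR2* (ENSDARG00000019726), which acts in planar polarity and axon guidance, fell from 72.1, 85.1 and 77.8 CPM to 0.340, 1.38 and 5.95 CPM between the stages, with a log2FC of -4.90 (SE 0.87, padj = 0.0056). *CNTNAP2* (ENSDARG00000074558), an adhesion protein of axons, fell from 49.0, 51.7 and 69.9 CPM to 0.681, 1.91 and 4.06 CPM, a log2FC of -4.65 (SE 0.63, padj = 0.0024). For *nova1* (ENSDARG00000020178), a neuronal splicing factor, the values were 49.3, 59.4 and 68.7 CPM and 1.11, 1.74 and 4.87 CPM (log2FC -4.50, padj = 0.0023). At 72 hpf replicate 3 kept the highest level of all 3 genes and replicate 1 the lowest.

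Transcription factors of neural and retinal progenitors fell with them. *foxn4* (ENSDARG00000010591), a forkhead factor of retinal progenitors that zebrafish also need for AVC formation, went from 153, 116 and 154 CPM to 6.21, 3.23 and 8.49 CPM, a log2FC of -4.56 (SE 0.49, padj = 0.0016). *pou3f1* (ENSDARG00000009823), a POU factor of neural cells, went from 194, 151 and 343 CPM to 3.15, 6.26 and 22 CPM (log2FC -4.45, padj = 0.0055), and *HES6* (ENSDARG00000007097), a bHLH factor of neurogenesis, from 44.6, 53.5 and 90.4 CPM to 0.766, 2.13 and 5.82 CPM (log2FC -4.41, padj = 0.0044). The stress-inducible *GADD45G* (ENSDARG00000016725) had a log2FC of -4.56, the internexin gene *INA* (ENSDARG00000053248), a neuronal filament, -4.40, the synaptic adhesion gene *igsf9b* (ENSDARG00000010408) -4.46 and *si:ch1073-382c16.2* (ENSDARG00000100430), of no known role here, -4.56. With replicate 1 of 72 hpf left out *GADD45G* was at -5.21 and *si:ch1073-382c16.2* at -5.65, and the other falls moved by less than 1.5 times. All 20 of the largest rises and falls kept padj below 0.05 in each of the 6 fits that left out 1 library and with total counts.

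**Figure D2:**
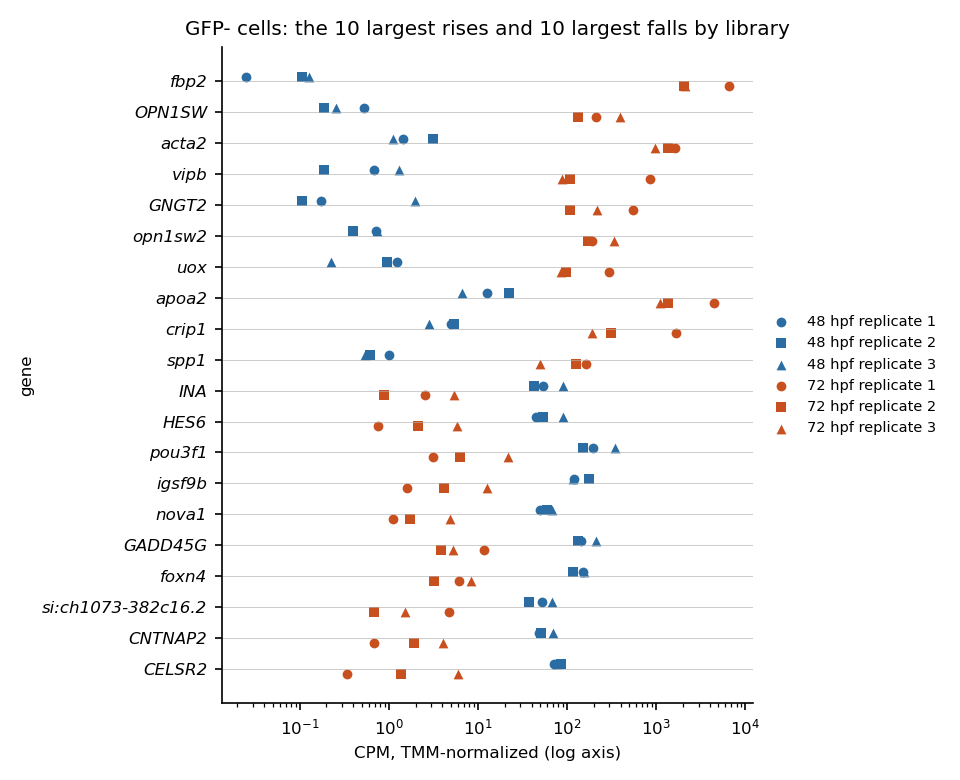
CPM of the 10 largest rises and the 10 largest falls in each GFP- library on a log axis, with 48 hpf in blue, 72 hpf in orange and 1 symbol per replicate. For all 20 genes, chosen with that in their rule, the 3 libraries of 48 hpf lie apart from the 3 of 72 hpf, as they do for 27.3% (higher) and 28.9% (lower) of all genes tested, and among the falling genes replicate 3 of 72 hpf often lies closest to 48 hpf.

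Groups of genes are described below by 32 lists, each with the number of tested members at padj below 0.05, without a limit on the fold change, and the median log2FC. Over all genes tested the same call took 19.8% of genes as higher and 16.5% as lower with all 6 libraries, and 22.1% and 21.6% without replicate 1 of 72 hpf. Counts of list members are read against these shares. Leaving out a 48 hpf library also lowered the calls over all genes. With the log2FC limit of 1, 2017 of 22707 genes were higher and 1601 lower without replicate 1 of that stage. The counts were 2457 and 1823 of 22672 without replicate 2, and 2147 and 1783 of 22829 without replicate 3. All 6 libraries gave 4363 and 3615 of 22080. A smaller list count in those fits is thus not in itself particular to the list. A member near 0 at 1 stage passed the expression filter only through the other stage, so its direction was fixed by the filter. In bulk libraries fewer cells of a type and less RNA per cell cannot be told apart.

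**Figure D3:**
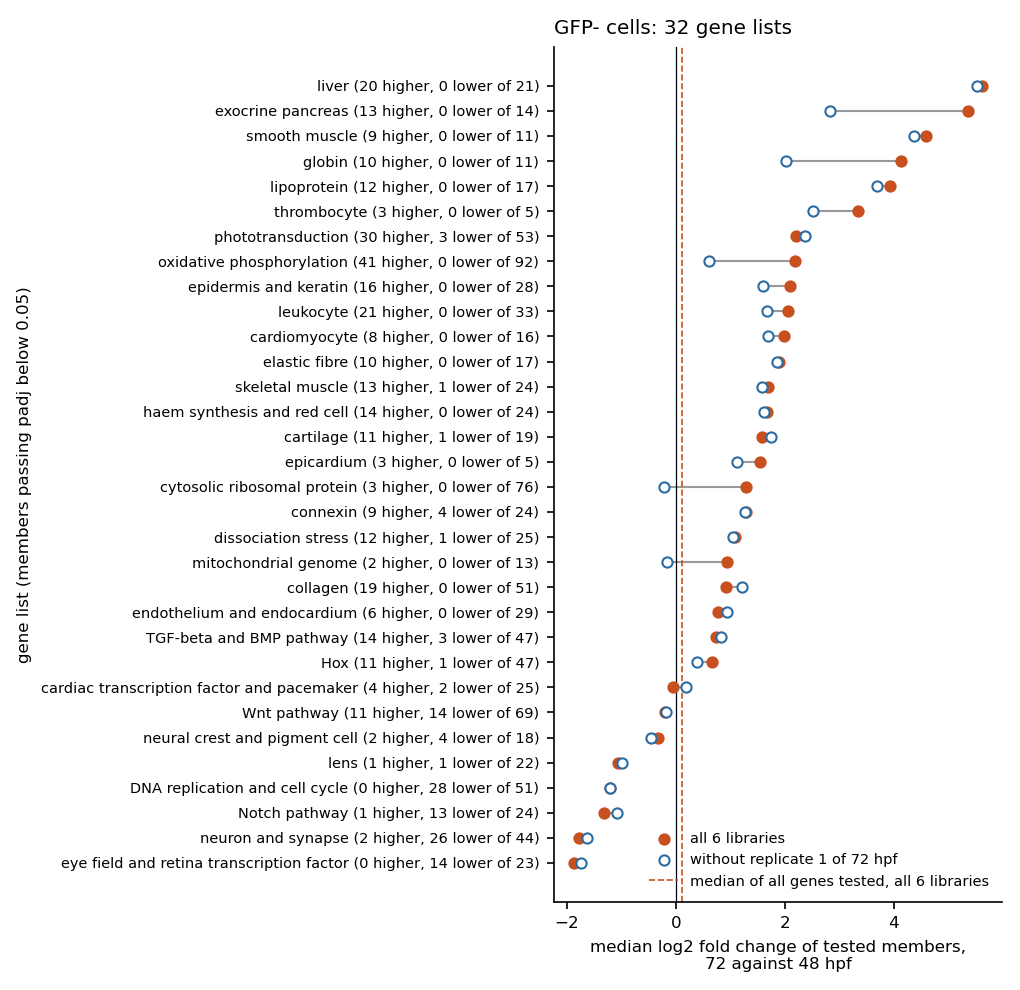
Median log2FC of the tested members of 32 gene lists, with all 6 libraries (filled) and without replicate 1 of 72 hpf (open). The dashed line marks the median of all genes, 0.11, and the labels give how many members were higher and lower at padj below 0.05. Liver has the highest median at 5.61, eye field and retina transcription factors the lowest at -1.86, and the lists for globin, exocrine pancreas, oxidative phosphorylation, ribosomal proteins and the mitochondrial genome move most when the library is left out.

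Cardiomyocyte genes were higher at 72 hpf. Of 16 markers tested, 8 rose and 0 fell, with a median log2FC of 1.99. Without replicate 1 of 72 hpf it was 6 and 0, with a median of 1.69. Their summed level was 139, 459 and 91.7 CPM in replicates 1, 2 and 3 at 48 hpf and 1447, 794 and 445 CPM at 72 hpf, so that replicate 2 of 48 hpf and replicate 3 of 72 hpf overlapped. The cardiac myosin light chain gene *myl7* (ENSDARG00000019096) was at 12.2, 35.1 and 6.43 CPM and 332, 112 and 51.5 CPM, a log2FC of 3.2 (SE 0.84, padj = 0.020). Cardiac actin, *actc1a* (ENSDARG00000042535), was at 25.8, 60.5 and 16.0 CPM and 347, 207 and 104 CPM, a log2FC of 2.69 (SE 0.64, padj = 0.014). Cardiac troponin T, *tnnt2a* (ENSDARG00000020610), was at 27.4, 24.6 and 6.46 CPM and 213, 87.1 and 39.7 CPM, a log2FC of 2.54 (SE 0.73, padj = 0.027).

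Not every sarcomere gene rose. The ventricular myosin heavy chain gene *myh7* (ENSDARG00000079564) had 22.5, 158 and 20.5 CPM and 25.1, 63.7 and 48.6 CPM with overlapping groups (log2FC -0.55, padj = 0.60). Leaving out replicate 1 of 72 hpf, the log2FC of *myl7*, *actc1a* and *tnnt2a* were 2.15, 2.15 and 1.66. These calls depended on single libraries. The number of rising cardiomyocyte markers was 1 without replicate 1 and 1 without replicate 3 of 48 hpf, 5 without replicate 2 of 72 hpf and 5 with total counts. *myl7* did not pass in 2 fits (padj = 0.079 without replicate 1 and 0.073 without replicate 3 of 48 hpf), nor did *actc1a* (padj = 0.068 without replicate 1 and 0.061 without replicate 3 of 48 hpf), and *tnnt2a* failed in more (padj = 0.064 without replicate 1, 0.071 without replicate 2 and 0.086 without replicate 3 of 48 hpf, 0.054 without replicate 2 of 72 hpf and 0.057 with total counts).

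Endothelial and endocardial genes mostly did not pass the test. Of 29 markers, 6 were higher and 0 lower, with a median log2FC of 0.78, and without replicate 1 of 72 hpf it was 5 and 0 with 0.93. Of all genes tested, 19.8% were higher, and 22.1% without that library. The counts of higher markers were thus near or below the share of all genes. The count of 6 was 1 without replicate 1, 2 without replicate 2 and 2 without replicate 3 of 48 hpf, 3 without replicate 2 of 72 hpf and 2 with total counts. Their summed level was 2286, 3603 and 1140.2 CPM at 48 hpf and 3383, 5494 and 3828 CPM at 72 hpf, with overlap. The flow-responsive factor *klf2a* (ENSDARG00000042667), which in zebrafish endocardium acts in valve formation, was at 182, 221 and 95 CPM and 467, 539.7 and 574 CPM without overlap, a log2FC of 1.67 (SE 0.44, padj = 0.021). That call was lost in 4 fits without 1 library and with total counts (padj = 0.091 without replicate 1, 0.052 without replicate 2 and 0.093 without replicate 3 of 48 hpf, 0.057 without replicate 2 of 72 hpf and 0.081 with total counts). Its paralog *klf2b* (ENSDARG00000040432) had 473, 678 and 201 CPM and 161, 546 and 622 CPM (log2FC -0.02, padj = 0.98).

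The junction gene *cdh5* (ENSDARG00000075549), vascular endothelial cadherin, had 306, 691 and 175 CPM and 354, 1010.3 and 659 CPM (log2FC 0.79, padj = 0.33), and the ETS factor *FLI1* (ENSDARG00000054632) a log2FC of 0.72 (padj = 0.29). Replicate 3 was the lowest 48 hpf library for *cdh5*, *klf2a*, *klf2b* and *FLI1*. Endothelial transcripts were thus present at both stages, with a wide spread within 48 hpf.

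Epicardium, the outer layer of the heart, gave 5 markers, 3 of them higher at 72 hpf, with a median log2FC of 1.55 (1.12 and 2 markers without replicate 1 of 72 hpf). Leaving out other libraries changed the 3 to 1 without replicate 1, 0 without replicate 2 and 0 without replicate 3 of 48 hpf, 1 without replicate 2 of 72 hpf and 0 with total counts. The retinoic acid enzyme *aldh1a2* (ENSDARG00000053493) was at 69.5, 62.3 and 37.9 CPM and 149, 162 and 129.5 CPM (log2FC 1.37, padj = 0.025). *TCF21* (ENSDARG00000036869), a bHLH factor of epicardium, was at 3.36, 3.22 and 2.54 CPM and 41.5, 5.87 and 6.22 CPM (log2FC 2.54, padj = 0.031), and replicate 1 of 72 hpf was far above the other libraries, with a log2FC of 0.95 (padj = 0.044) without it. *wt1b* (ENSDARG00000007990) was called with all 6 libraries (log2FC 1.78, padj = 0.049) and not without that replicate (log2FC 1.12, padj = 0.12). *tbx18* (ENSDARG00000036930) had overlapping levels (log2FC -0.32, padj = 0.60). The calls were otherwise lost as follows: *aldh1a2* with padj = 0.081 without replicate 1, 0.084 without replicate 2 and 0.11 without replicate 3 of 48 hpf, 0.070 without replicate 2 of 72 hpf and 0.13 with total counts, *TCF21* with padj = 0.087 without replicate 1, 0.089 without replicate 2 and 0.11 without replicate 3 of 48 hpf and 0.058 with total counts, and *wt1b* with padj = 0.096 without replicate 1, 0.11 without replicate 2 and 0.15 without replicate 3 of 48 hpf, 0.12 without replicate 1 and 0.091 without replicate 2 of 72 hpf and 0.13 with total counts.

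Smooth muscle genes rose in nearly all cases. Of 11 genes, 9 rose and 0 fell, the median log2FC was 4.59, and 9 rose in each of the 6 fits that left out 1 library, with a median of 4.36 without replicate 1 of 72 hpf. The summed level was 48.9, 55.3 and 41.6 CPM at 48 hpf and 3087, 2106 and 1558 CPM at 72 hpf. Besides *acta2*, smooth muscle myosin heavy chain, *myh11a* (ENSDARG00000009782), rose from 5.86, 7.53 and 1.41 CPM to 49.9, 217 and 188 CPM, a log2FC of 4.94 (SE 0.81, padj = 0.0043). Myosin light chain kinase, *mylka* (ENSDARG00000034801), rose from 19.5, 14.8 and 13 CPM to 36.1, 83.0 and 82.7 CPM, a log2FC of 2.09 (SE 0.43, padj = 0.0089). Both had their lowest 72 hpf value in replicate 1, while *acta2* had its highest there. The smoothelin gene *smtnb* (ENSDARG00000059442) had 13.2, 20.4 and 17.1 CPM and 20.3, 18.5 and 28.5 CPM and did not pass (log2FC 0.41, padj = 0.37).

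Elastic fibre genes, which build the stretchable wall of the outflow tract, rose in 10 of 17 cases and fell in 0, with a median log2FC of 1.89 (12 of 17 and 1.85 without replicate 1 of 72 hpf). Summed over the list, they reached 472, 597 and 274 CPM at 48 hpf and 2499, 2362 and 2200.3 CPM at 72 hpf. *fbln5* (ENSDARG00000039273), a fibulin that guides elastin assembly, rose from 13.2, 9.70 and 6.04 CPM to 252, 361 and 233 CPM, a log2FC of 4.87 (SE 0.50, padj = 0.0013). The microfibril gene *mfap2* (ENSDARG00000059367) rose from 154, 127 and 89.0 CPM to 1633, 844 and 957 CPM, a log2FC of 3.21 (SE 0.48, padj = 0.0033). Both rose in every fit that left out 1 library, and the 10 of the list became between 7 and 12. The fibrillin gene *fbn2b* (ENSDARG00000098237) had 74.8, 163 and 34.4 CPM and 11, 73.4 and 84.7 CPM (log2FC -0.68, padj = 0.50), and *ltbp3* (ENSDARG00000035682), which holds latent TGF-beta in the matrix, passed only without replicate 1 of 72 hpf (log2FC 1.37, padj = 0.10 against 1.68, padj = 0.017).

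Among 51 collagen genes 19 rose and 0 fell, with a median log2FC of 0.93. Replicate 1 of 72 hpf was low for several of them, and without it 30 of 53 rose with a median of 1.21. The other fits that moved the count gave 12 without replicate 1 and 12 without replicate 3 of 48 hpf, 30 without replicate 1 of 72 hpf and 11 with total counts. Fibrillar collagen I shows the pattern: *col1a1a* (ENSDARG00000012405) was at 2389.9, 2361 and 629.8 CPM at 48 hpf and 552, 3629.5 and 4906 CPM at 72 hpf (log2FC 0.76, padj = 0.47). *col1a2* (ENSDARG00000020007) was at 329.7, 314 and 125 CPM and 352, 1612 and 1557 CPM, a log2FC of 2.19 (SE 0.67, padj = 0.033). For both genes replicates 2 and 3 of 72 hpf were above every 48 hpf library, while replicate 1 of 72 hpf was below every 48 hpf library for *col1a1a*. Without replicate 1 the log2FC were 1.21 (padj = 0.078) and 2.58 (padj = 0.0013). The call of *col1a2* depended on every other library (padj = 0.088 without replicate 1, 0.084 without replicate 2 and 0.12 without replicate 3 of 48 hpf, 0.095 without replicate 2 and 0.064 without replicate 3 of 72 hpf and 0.073 with total counts). *COL1A1* (ENSDARG00000035809) and *col5a2a* (ENSDARG00000031678) passed only without replicate 1 of 72 hpf, with log2FC of 2.18 (padj = 0.0040) and 1.79 (padj = 0.0079), against 1.77 (padj = 0.077) and 1.44 (padj = 0.097) with all 6.

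Cartilage genes, some of which valves share, gave 11 of 19 higher and 1 lower, with a median log2FC of 1.58 (12 and 1, 1.75 without replicate 1 of 72 hpf). The 11 became 7 without replicate 1 and 7 without replicate 3 of 48 hpf and 7 with total counts. The single member that fell was *SOX9* (ENSDARG00000043923), a factor of cartilage and valve precursors, at 73.7, 58.5 and 63.7 CPM and 12.7, 18.8 and 16.3 CPM with no overlap, a log2FC of -2.03 (SE 0.35, padj = 0.0050). The related *sox9a* (ENSDARG00000003293) did not fall with it: its levels overlapped between the stages and it did not pass (log2FC 0.58, padj = 0.23). The hyaluronan link protein gene *HAPLN1* (ENSDARG00000068516) rose from 64.3, 116 and 30.5 CPM to 250.4, 523 and 384 CPM, a log2FC of 2.46 (SE 0.57, padj = 0.013), though not in every fit (padj = 0.066 without replicate 1 and 0.051 without replicate 3 of 48 hpf). Its paralog *hapln1a* (ENSDARG00000089769) had 431, 451 and 538 CPM and 66, 450.0 and 465 CPM (log2FC -0.53, padj = 0.54), with replicate 1 of 72 hpf far below all others.

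Few cardiac transcription factors and pacemaker genes passed the test. Of 25 tested, 4 rose and 2 fell (16.0% and 8.0%, against 19.8% and 16.5% of all genes), with a median log2FC of -0.04 that turned to 0.18, with 6 higher and 6 lower, when replicate 1 of 72 hpf was left out. The counts moved in most fits: the 4 became 1 without replicate 1, 2 without replicate 2 and 0 without replicate 3 of 48 hpf and 2 with total counts, and the 2 became 1 without replicate 1, 1 without replicate 2 and 1 without replicate 3 of 48 hpf, 6 without replicate 1, 1 without replicate 2 and 6 without replicate 3 of 72 hpf and 1 with total counts. *hand2* (ENSDARG00000008305), a bHLH factor of heart and branchial mesenchyme, rose from 186, 243 and 133 CPM to 1129.7, 944 and 484 CPM, a log2FC of 2.19 (SE 0.49, padj = 0.011), and was not called in 2 fits (padj = 0.064 without replicate 1 and 0.064 without replicate 3 of 48 hpf). *shox2* (ENSDARG00000075713), a homeobox factor of the sinoatrial pacemaker that neurons also express, fell from 18.8, 15.8 and 38.5 CPM to 2.04, 2.37 and 4.16 CPM, a log2FC of -3.08 (SE 0.50, padj = 0.0041), in every fit.

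The pacemaker channel gene *hcn4* (ENSDARG00000061685) fell from 6.51, 6.43 and 4.88 CPM to 0.851, 1.68 and 3.08 CPM (log2FC -1.64, padj = 0.031), a call lost in most fits (padj = 0.093 without replicate 1, 0.086 without replicate 2 and 0.063 without replicate 3 of 48 hpf, 0.092 without replicate 2 of 72 hpf and 0.086 with total counts). The LIM homeobox gene *isl1* (ENSDARG00000004023), used by pacemaker cells and by motor and retinal neurons, had overlapping values of 132, 115 and 117 CPM and 81.4, 55.3 and 138 CPM (log2FC -0.41, padj = 0.47). *gata5* (ENSDARG00000017821), an early endocardial and myocardial factor, had 73.1, 132 and 30.8 CPM and 153, 306 and 152 CPM (log2FC 1.37, padj = 0.089), and *tbx2a* (ENSDARG00000018025), a T-box repressor of chamber genes, a log2FC of 0.53 (padj = 0.28). Without replicate 1 of 72 hpf both passed, at 1.5 (padj = 0.041) and 0.71 (padj = 0.035).

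Connexins are the channel proteins of gap junctions. Of 24 tested, 9 rose and 4 fell, with a median log2FC of 1.28 (1.27, 11 and 4 without replicate 1 of 72 hpf, and 5 without replicate 3 of 48 hpf higher). *cx43* (ENSDARG00000041799), the main connexin of many mesenchymal cells, rose from 28.9, 34.2 and 28.3 CPM to 95, 162 and 177 CPM, a log2FC of 2.25 (SE 0.39, padj = 0.0054). *cx43.4* (ENSDARG00000007099), an embryonic connexin, fell from 284, 234 and 353 CPM to 80.9, 93.4 and 85.0 CPM, a log2FC of -1.75 (SE 0.38, padj = 0.010). Both kept their calls in each fit without 1 library. The neuronal connexins *gjd1a* (ENSDARG00000111977) and *GJD2* (ENSDARG00000067999) fell, with log2FC of -2.47 (padj = 0.0082) and -3.18 (padj = 0.010). *GJA5* (ENSDARG00000069450) had a log2FC of -0.45 (padj = 0.36).

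Notch pathway genes were mostly lower. Notch signals between neighbouring cells, and in embryos it acts both in endocardium and in neural progenitors. Of 24 genes tested, 13 fell and 1 rose, with a median log2FC of -1.32 (16 and 1, -1.08 without replicate 1 of 72 hpf), and the 13 became 8 without replicate 2 and 8 without replicate 3 of 48 hpf. The receptor *notch1a* (ENSDARG00000103554) fell from 380.0, 441 and 428 CPM to 35.4, 104 and 88.5 CPM, a log2FC of -2.46 (SE 0.49, padj = 0.0079). Its target *her15.1* (ENSDARG00000054562), a repressor of neurogenesis, fell from 676, 412 and 1138 CPM to 148, 41.0 and 81.1 CPM, a log2FC of -3.04 (SE 0.62, padj = 0.0086), and a log2FC of -3.65 without replicate 1 of 72 hpf. Another Hairy-type target, *her4.2* (ENSDARG00000094426), fell from 687, 460.0 and 1340.1 CPM to 156, 112 and 215 CPM, a log2FC of -2.36 (SE 0.53, padj = 0.012), and missed the threshold in 1 fit (padj = 0.054 without replicate 3 of 48 hpf). The stages did not overlap for any of the 3. Of all genes tested, 28.9% were lower at 72 hpf without overlap. Both *her* genes have near-identical neighbours, so that their reads may be shared among copies.

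Fringe enzymes, which modify Notch receptors, did not go the same way. *lfng* (ENSDARG00000037879) had a log2FC of -1.09 (padj = 0.10), and -0.80 (padj = 0.042) without replicate 1 of 72 hpf. *mfng* (ENSDARG00000042925), the member that rose, went from 11.1, 16.8 and 5.59 CPM to 38.8, 43.0 and 24.2 CPM, a log2FC of 1.66 (SE 0.47, padj = 0.026). That call was not made in several fits (padj = 0.094 without replicate 1 and 0.084 without replicate 3 of 48 hpf, 0.076 without replicate 2 of 72 hpf and 0.12 with total counts).

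TGF-beta and BMP genes, which act in cushion and valve formation, gave 14 higher and 3 lower of 47, with a median log2FC of 0.74. Without replicate 1 of 72 hpf it was 21 and 7, with 0.83, and the 14 became 5 without replicate 1 and 5 without replicate 3 of 48 hpf and 8 with total counts. The BMP-responsive *id2b* (ENSDARG00000029544) rose from 91.2, 180.5 and 51.3 CPM to 2670.3, 713 and 419 CPM, a log2FC of 3.56 (SE 0.82, padj = 0.013), except in 2 fits (padj = 0.059 without replicate 1 and 0.060 without replicate 3 of 48 hpf). Its log2FC was 2.35 without replicate 1 of 72 hpf, the highest library. *ID1* (ENSDARG00000040764), another BMP target, had 256, 269 and 403 CPM and 1036, 178 and 145 CPM (log2FC 0.55, padj = 0.57) and turned to -0.98 (padj = 0.025) without that library. The sign for *ID1* was set by 1 library. *id2a* (ENSDARG00000055283) did not pass (log2FC 0.38, padj = 0.63).

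The 3 members that fell encode a receptor and shared signal carriers. The receptor *TGFBR1* (ENSDARG00000042259) fell from 43.1, 42.0 and 40.9 CPM to 4.85, 10.8 and 7.17 CPM, a log2FC of -2.46 (SE 0.40, padj = 0.0041). *smad4a* (ENSDARG00000075226) and *smad4b* (ENSDARG00000012649), the common partners of receptor-activated Smad proteins, fell with log2FC of -1.72 (padj = 0.0071) and -1.97 (padj = 0.010). All 3 fell in each fit that left out 1 library. A second *TGFBR1* gene (ENSDARG00000017494) had overlapping values of 5.59, 6.81 and 3.37 CPM and 6.64, 5.70 and 3.38 CPM (log2FC -0.01, padj = 0.99). The BMP receptor *BMPR1A* (ENSDARG00000019728) was called only without replicate 1 of 72 hpf (log2FC 1.07, padj = 0.0063, against 0.80, padj = 0.17).

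Wnt pathway genes showed no common direction. Of 69 tested, 11 rose and 14 fell, with a median log2FC of -0.20 (15 and 17, -0.17 without replicate 1 of 72 hpf). Leaving out a library changed the 11 to 5 without replicate 1, 6 without replicate 2 and 7 without replicate 3 of 48 hpf, and the 14 to 9 without replicate 1, 8 without replicate 2 and 9 without replicate 3 of 48 hpf. These are 15.9% and 20.3% of the list, against 19.8% and 16.5% of all genes. The rising members are named here as the smaller side of the list, and the falling ones were not named by the rule. *wnt11* (ENSDARG00000014796), a ligand that in zebrafish shapes myocardial coupling, rose from 44.7, 52.2 and 36.3 CPM to 373, 378 and 410.1 CPM, a log2FC of 3.12 (SE 0.39, padj = 0.0020). *wnt5a* (ENSDARG00000104973) rose from 0.276, 0.0268 and 0.225 CPM to 24.3, 8.13 and 7.95 CPM, a log2FC of 6.22 (SE 0.82, padj = 0.0022), on 19 counts in all at 48 hpf, and a log2FC of 5.44 without replicate 1 of 72 hpf. The inhibitor *dkk1b* (ENSDARG00000045219) rose from 1.05, 1.47 and 0.964 CPM to 95.6, 18.1 and 8.18 CPM, a log2FC of 5.11 (SE 0.92, padj = 0.0058), with its highest value in replicate 1 of 72 hpf and a log2FC of 3.45 without it.

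The other 8 rising Wnt genes were at lower level or lost their call in some fits. *wnt2ba* (ENSDARG00000005050) and the receptor *fzd9a* (ENSDARG00000035185) had log2FC of 3.01 and 3.03 and rose in every fit without 1 library, on 28 and 41 counts at 48 hpf. *wnt2bb*, *dkk1a*, *dkk3b*, *wnt4*, *notum1b* and *sfrp1a* had log2FC between 1.24 and 3.38. Of these, *wnt2bb* (padj = 0.052 without replicate 1 of 48 hpf) and *dkk1a* (padj = 0.058 without replicate 1 and 0.050 without replicate 2 of 48 hpf) were lost in the fewest fits. The beta-catenin genes *ctnnb1* (ENSDARG00000014571) and *ctnnb2* (ENSDARG00000023472), the pathway's signal carriers, did not pass (log2FC -0.86, padj = 0.21, and -0.08, padj = 0.90), nor did the receptor *fzd7a* (ENSDARG00000060004, log2FC -0.40, padj = 0.46).

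Red cell genes were higher at 72 hpf, globins above all. Of 11 globin genes, 10 rose and 0 fell, with a median log2FC of 4.13, and without replicate 1 of 72 hpf 10 rose and 1 fell, with a median of 2.02. Together they had 4549, 4042 and 7769 CPM at 48 hpf and 282238, 28822 and 23201 CPM at 72 hpf, and at 72 hpf the value of replicate 1 stood far above the others. A beta globin gene listed under the human name *HBE1* (ENSDARG00000087390) went from 1394, 1251 and 2389.6 CPM to 107420.0, 10949 and 8991 CPM, a log2FC of 4.66 (SE 1.07, padj = 0.013). The alpha globin gene *hbae3* (ENSDARG00000079305) went from 455, 414 and 759 CPM to 26999, 2919 and 2639.9 CPM, a log2FC of 4.32 (SE 1.00, padj = 0.013). Without replicate 1 their log2FC were 2.52 (padj = 0.00097) and 2.31 (padj = 0.00095). The calls were lost with any 48 hpf library left out (*HBE1*, padj = 0.059 without replicate 1, 0.053 without replicate 2 and 0.053 without replicate 3 of 48 hpf, and *hbae3*, padj = 0.059 without replicate 1, 0.054 without replicate 2 and 0.053 without replicate 3 of 48 hpf), and the count of 10 became 3 without replicate 1, 3 without replicate 2 and 4 without replicate 3 of 48 hpf. Globin genes are near-identical copies, so the division of reads among them is uncertain.

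Genes of haem synthesis and the red cell membrane, which are not such copies, gave 14 of 24 higher and 0 lower, with a median log2FC of 1.67 (1.61 and 16 without replicate 1 of 72 hpf). The 14 became 6 without replicate 1 and 6 without replicate 2 of 48 hpf and 8 with total counts. The ammonium channel gene *rhag* (ENSDARG00000019253) of the red cell membrane rose from 49.1, 54.8 and 37.1 CPM to 299, 571 and 343 CPM, a log2FC of 3.11 (SE 0.45, padj = 0.0029). Red cell carbonic anhydrase, *cahz* (ENSDARG00000011166), rose from 128, 117 and 222 CPM to 1197, 560.5 and 560.0 CPM, a log2FC of 2.31 (SE 0.51, padj = 0.011), and the anion exchanger *SLC4A1* (ENSDARG00000012881) from 87.2, 99.6 and 145 CPM to 168, 605 and 357 CPM (log2FC 1.77, padj = 0.031). For *rhag* and *SLC4A1* replicate 1 of 72 hpf, the globin-rich library, was the lowest of its stage. *cahz* and *SLC4A1* lost their calls in some fits (*cahz*, padj = 0.065 without replicate 1 and 0.055 without replicate 2 of 48 hpf, and *SLC4A1*, padj = 0.13 without replicate 1, 0.11 without replicate 2 and 0.071 without replicate 3 of 48 hpf, 0.11 without replicate 2 of 72 hpf and 0.086 with total counts). The early haematopoietic factor *TAL1* (ENSDARG00000019930) had overlapping values (log2FC 0.15, padj = 0.82).

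Among thrombocyte genes, 3 of 5 rose and 0 fell, in every fit that left out 1 library, with a median log2FC of 3.35 (2.51 without replicate 1 of 72 hpf). The surface glycoprotein gene *gp9* (ENSDARG00000090638) rose from 1.13, 1.15 and 1.67 CPM to 25, 9.17 and 6.29 CPM, a log2FC of 3.35 (SE 0.58, padj = 0.0053) (2.51 without replicate 1 of 72 hpf), and the thrombopoietin receptor *mpl* (ENSDARG00000039222) from 0.802, 1.31 and 0.0964 CPM to 3.23, 26.8 and 10.9 CPM, a log2FC of 4.2 (SE 0.97, padj = 0.013). *GP1BB* (ENSDARG00000074441) was higher in all 3 libraries of 72 hpf and did not pass (log2FC 0.70, padj = 0.11).

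Leukocyte genes followed, with 21 of 33 higher and 0 lower and a median log2FC of 2.07 (19 and 1.68 without replicate 1 of 72 hpf). The 21 became 9 without replicate 1 and 11 without replicate 3 of 48 hpf and 12 with total counts. *rac2* (ENSDARG00000038010), a GTPase of neutrophils and macrophages, rose from 10.0, 11.4 and 13 CPM to 105, 47.6 and 26.5 CPM, a log2FC of 2.37 (SE 0.52, padj = 0.011), with a log2FC of 1.64 without replicate 1 of 72 hpf and with 1 fit just past the threshold (padj = 0.054 without replicate 1 of 48 hpf). *MFAP4* (ENSDARG00000089667), a macrophage marker in zebrafish, rose from 13.7, 10.8 and 10.8 CPM to 164, 29.8 and 16.0 CPM (log2FC 2.57, padj = 0.035, and 0.92, padj = 0.044, without replicate 1 of 72 hpf), and was lost in other fits (padj = 0.092 without replicate 1, 0.10 without replicate 2 and 0.11 without replicate 3 of 48 hpf and 0.059 with total counts). Several genes carry the name *MFAP4*, and they did not move alike. ENSDARG00000088745 rose in every fit without 1 library (log2FC 3.90, padj = 0.0071, and 2.81 without replicate 1 of 72 hpf). ENSDARG00000116066 and ENSDARG00000090557 overlapped between the stages (log2FC 0.43, padj = 0.39, and 0.02, padj = 0.98). The classical markers *MPEG1* (ENSDARG00000043093) of macrophages and *lyz* (ENSDARG00000057789), lysozyme of neutrophils, also overlapped (log2FC 0.52, padj = 0.47, and 1.55, padj = 0.25). Values of *lyz* ran from 8.71 to 109 CPM within 48 hpf.

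**Figure D4:**
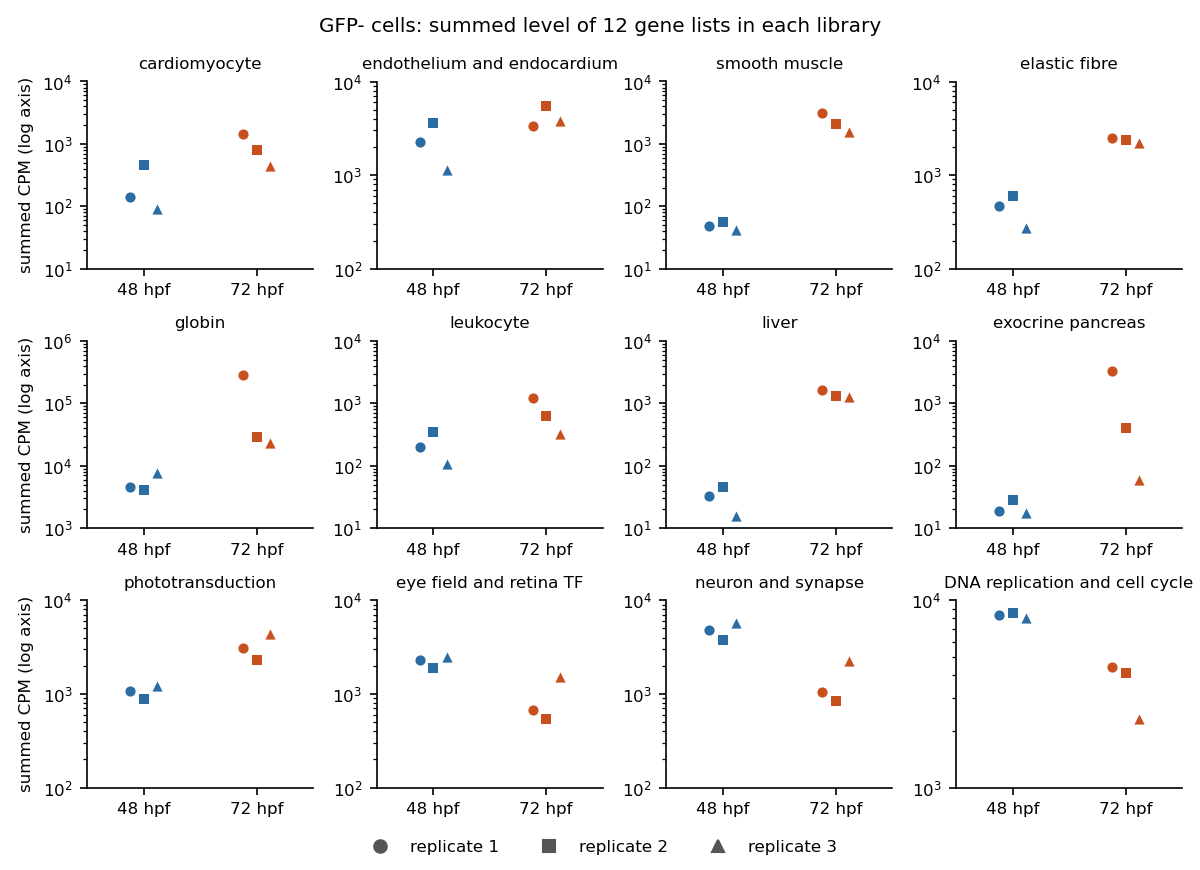
Summed CPM of the members of 12 gene lists in each GFP- library on log axes, with 48 hpf in blue, 72 hpf in orange and 1 symbol per replicate. Smooth muscle (41.6 to 55.3 against 1558 to 3087 CPM) and liver lie far apart between the stages, globin and exocrine pancreas spread widely within 72 hpf, and cardiomyocyte, endothelial and leukocyte levels overlap.

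Photoreceptor genes rose as the eye field factors fell. Of 53 phototransduction genes, which turn light into a change of membrane voltage, 30 rose and 3 fell, with a median log2FC of 2.2 (36 and 3 of 55, 2.38 without replicate 1 of 72 hpf). The summed level was 1077, 892 and 1226 CPM at 48 hpf and 3127, 2299.9 and 4384 CPM at 72 hpf, highest in replicate 3. Cone arrestin, *ARR3* (ENSDARG00000056511), which quenches activated opsin, rose from 16.2, 23.6 and 36.7 CPM to 112, 134 and 319.9 CPM, a log2FC of 2.89 (SE 0.55, padj = 0.0070), in every fit. The 3 members that fell were the phosphodiesterase subunit *PDE6G* (ENSDARG00000101984), from 136, 148 and 209.9 CPM to 56.5, 19.4 and 82.9 CPM (log2FC -1.64, padj = 0.043), *RGS9* (ENSDARG00000045156), which shuts off transducin (log2FC -1.48, padj = 0.041), and the opsin kinase *GRK7* (ENSDARG00000055534, log2FC -1.50, padj = 0.023). These falls are the less certain side of the list, since their number was 0 without replicate 1, 0 without replicate 2 and 0 without replicate 3 of 48 hpf, 0 without replicate 2 of 72 hpf and 0 with total counts. A second *GRK7* gene (ENSDARG00000020602) went the other way, from 0.100, 0.402 and 3.50 CPM to 4.34, 16.0 and 33.1 CPM (log2FC 3.76, padj = 0.036). That rise was called in 2 of the 6 fits without 1 library.

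The G protein subunits *gnb1b* (ENSDARG00000104372), which many tissues express, and *GNB3* (ENSDARG00000004358) did not pass (log2FC -0.08, padj = 0.88, and 0.77, padj = 0.32). The paralog *gnb3b* (ENSDARG00000002696) rose from 0.827, 0.483 and 1.74 CPM to 75.0, 87.1 and 158 CPM (log2FC 6.72, padj = 0.0012), in each fit without 1 library. Of 23 transcription factors of the eye field and retina, 14 fell and 0 rose, with a median log2FC of -1.86 (18 and -1.74 without replicate 1 of 72 hpf), and the 14 became 5 without replicate 1, 6 without replicate 2 and 5 without replicate 3 of 48 hpf and 6 without replicate 2 of 72 hpf. *PAX6* (ENSDARG00000045936), which retinal progenitors require, fell from 179.9, 173 and 182 CPM to 44.7, 18.3 and 84.2 CPM, a log2FC of -1.86 (SE 0.55, padj = 0.029), and not in 4 fits (padj = 0.081 without replicate 1, 0.071 without replicate 2 and 0.081 without replicate 3 of 48 hpf and 0.062 without replicate 2 of 72 hpf).

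The most expressed factors of this list, *crx*, *neurod1* and *VSX1*, which differentiating retinal neurons keep in use, did not pass. They do not stand for the list. *OTX2* (ENSDARG00000011235) fell with a log2FC of -3.26 (padj = 0.0037), in each of the 6 fits without 1 library. *NR2E3* (ENSDARG00000045904) fell with a log2FC of -1.90 (padj = 0.014), in 4 of those 6 fits. *crx* (ENSDARG00000011989), a homeobox factor of photoreceptors, was at 292, 213 and 304 CPM and 103, 89.4 and 405 CPM (log2FC -0.44, padj = 0.59). *neurod1* (ENSDARG00000019566) had a log2FC of -0.99 (padj = 0.12) and the bipolar cell factor *VSX1* (ENSDARG00000056292) of -0.50 (padj = 0.43). Replicate 3 was the highest 72 hpf library for *PAX6*, *crx*, *neurod1* and *VSX1*, and without it *crx* and *neurod1* passed (padj = 0.026 and 0.027).

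Neuron and synapse genes were mostly lower at 72 hpf. Of 44 tested, 26 fell and 2 rose, with a median log2FC of -1.77 (27 and 3, -1.63 without replicate 1 of 72 hpf). The summed level was 4768, 3764 and 5785 CPM at 48 hpf and 1048, 832 and 2275 CPM at 72 hpf, and the stages did not overlap. *ELAVL3* (ENSDARG00000014420), an RNA-binding protein of newborn neurons, fell from 1241, 1239.8 and 1801 CPM to 59.4, 102 and 272 CPM, a log2FC of -3.31 (SE 0.64, padj = 0.0072). *STMN2* (ENSDARG00000070537), which regulates microtubules in growing axons, fell from 531, 270.1 and 564 CPM to 37.0, 51.3 and 108 CPM, a log2FC of -2.80 (SE 0.55, padj = 0.0077). Both fell in every fit that left out 1 library. The related *ELAVL4* (ENSDARG00000045639) had a log2FC of -1.85 (padj = 0.015), not called in 3 fits (padj = 0.060 without replicate 1 and 0.060 without replicate 3 of 48 hpf and 0.056 without replicate 2 of 72 hpf), and the endosomal protein gene *NSG2* (ENSDARG00000102975) did not pass (log2FC -0.64, padj = 0.32).

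The 2 neuronal members that rose were both low. The syntaxin *stx1a* (ENSDARG00000058994) had 5 counts in all 48 hpf libraries and 0.596, 0.559 and 0.744 CPM at 72 hpf (log2FC 3.68, padj = 0.022), and the vesicular glutamate transporter *SLC17A7* (ENSDARG00000090106) was at 0.401, 0.348 and 0.225 CPM and 0.425, 1.18 and 1.69 CPM (log2FC 1.78, padj = 0.045). Neither held in all fits (*stx1a*, padj = 0.072 without replicate 1 and 0.073 without replicate 3 of 48 hpf and 0.055 without replicate 2 of 72 hpf, and *SLC17A7*, padj = 0.11 without replicate 1, 0.12 without replicate 2 and 0.14 without replicate 3 of 48 hpf, 0.10 without replicate 2 and 0.12 without replicate 3 of 72 hpf and 0.14 with total counts). Their number was 0 without replicate 1, 1 without replicate 2 and 0 without replicate 3 of 48 hpf, 0 without replicate 2 and 1 without replicate 3 of 72 hpf and 1 with total counts. The 26 falling members became 9 without replicate 1, 16 without replicate 2 and 10 without replicate 3 of 48 hpf, 9 without replicate 2 of 72 hpf and 13 with total counts. Neural and eye genes were thus present in these heart preparations at both stages, and their part in the changes of other lists was not tested.

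Liver genes had the highest median of the 32 lists. Of 23 genes matched, 21 were tested, and of these 20 rose and 0 fell, with a median log2FC of 5.61. In each fit without 1 library 20 or 21 rose, with a median of 5.52 without replicate 1 of 72 hpf. For members near 0 at 48 hpf, such as *itih3a* (ENSDARG00000055036) at 0, 0 and 0.0321 CPM, a rise was fixed by the expression filter. Summed liver levels were 32.6, 46.1 and 15.6 CPM at 48 hpf and 1625, 1287 and 1258 CPM at 72 hpf. Transferrin, *tfa* (ENSDARG00000016771), the iron carrier of plasma, rose from 8.79, 13.1 and 2.80 CPM to 249.98, 437 and 485 CPM, a log2FC of 5.57 (SE 0.69, padj = 0.0020). The plasma protease inhibitor precursor *ambp* (ENSDARG00000004296) rose from 2.98, 4.74 and 2.44 CPM to 160.2, 59.6 and 56.4 CPM, a log2FC of 4.76 (SE 0.58, padj = 0.0019), and complement *c3a.1* (ENSDARG00000012694) from 2.08, 3.70 and 1.06 CPM to 18.7, 65.8 and 86.5 CPM, a log2FC of 4.64 (SE 0.71, padj = 0.0036). Replicate 1 was the highest 72 hpf library for *ambp*, whose log2FC was 4.05 without it, and the lowest for *tfa* and *c3a.1*.

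Lipoprotein genes, made in liver, gut and yolk, gave 12 of 17 higher and 0 lower, with a median log2FC of 3.92 (14 and 3.70 without replicate 1 of 72 hpf). *apoa1b* (ENSDARG00000101324), the main protein of high-density lipoprotein, rose from 9.12, 16.9 and 3.92 CPM to 931, 429.5 and 363 CPM, a log2FC of 5.85 (SE 0.74, padj = 0.0020), and the lipase cofactor *apoc2* (ENSDARG00000092155) from 2.83, 4.99 and 4.72 CPM to 111, 49.6 and 30.1 CPM, a log2FC of 3.92 (SE 0.57, padj = 0.0030), or 3.21 without replicate 1 of 72 hpf. *apoeb* (ENSDARG00000040295), which many other cells make, did not pass (log2FC 0.53, padj = 0.29).

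Of 21 exocrine pancreas genes matched, 14 were tested. Of these 13 were higher and 0 lower, but with very unlike levels within 72 hpf. Members near 0 at 48 hpf, such as *prss59.2* (ENSDARG00000073742) at 0 CPM in all 3 libraries, passed the expression filter only through 72 hpf. Their rise was therefore fixed by the filter. The summed level was 18.6, 28.1 and 17.4 CPM at 48 hpf and 3259, 404 and 58.2 CPM in replicates 1, 2 and 3 of 72 hpf. The median log2FC was 5.36 and 2.82 without replicate 1, with 13 of 14 higher in both fits. The carboxypeptidase gene *cpa4* (ENSDARG00000043722) rose from 1.43, 1.58 and 1.67 CPM to 212, 34.2 and 4.50 CPM, a log2FC of 5.74 (SE 1.23, padj = 0.010), in every fit, with 3.59 without replicate 1. For *cpa5* (ENSDARG00000021339), at 3.13, 8.10 and 0.707 CPM and 304, 72.0 and 5.48 CPM, replicate 3 of 72 hpf lay below replicate 2 of 48 hpf (log2FC 4.99, padj = 0.024, 3.24 without replicate 1 of 72 hpf, and padj = 0.081 without replicate 1 and 0.076 without replicate 3 of 48 hpf). The chymotrypsin-like *ctrl* (ENSDARG00000068680) and the disulfide isomerase *pdia2* (ENSDARG00000018263) had log2FC of 4.02 and 3.43, and 1.59 (padj = 0.023) and 2.31 (padj = 0.0043) without replicate 1. Their calls were lost in some fits (*ctrl*, padj = 0.079 without replicate 1, 0.065 without replicate 2 and 0.084 without replicate 3 of 48 hpf, and *pdia2*, padj = 0.051 without replicate 3 of 48 hpf).

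Skeletal muscle genes gave 13 of 24 higher and 1 lower, with a median log2FC of 1.68 (14 and 1 of 26, 1.58 without replicate 1 of 72 hpf). The skeletal actins *acta1a* (ENSDARG00000036371) and *acta1b* (ENSDARG00000055618) rose from 10.5, 14.7 and 13.6 CPM to 215, 127 and 111 CPM (log2FC 3.55, padj = 0.0019) and from 2.98, 20.8 and 3.79 CPM to 159, 170.5 and 83.5 CPM (log2FC 3.91, padj = 0.0088). Actins share much of their sequence, and the heart also uses several of them, so these values are less specific than others. The myogenic factor *MYOG* (ENSDARG00000009438) was called with overlapping groups (log2FC 1.54, padj = 0.049, and padj = 0.14 without replicate 1, 0.12 without replicate 2 and 0.15 without replicate 3 of 48 hpf, 0.13 without replicate 3 of 72 hpf and 0.15 with total counts). The calcium store protein *CASQ1* (ENSDARG00000038716) fell from 2.25, 2.65 and 2.44 CPM to 0.255, 0.818 and 1.22 CPM (log2FC -1.61, padj = 0.043), a call that was not made in 4 fits without 1 library (padj = 0.097 without replicate 1, 0.11 without replicate 2 and 0.099 without replicate 3 of 48 hpf, 0.10 without replicate 2 of 72 hpf and 0.099 with total counts), and muscle creatine kinase *ckma* (ENSDARG00000035327) did not pass (log2FC 1.08, padj = 0.097, but padj = 0.040 without replicate 2 of 48 hpf).

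Epidermis and keratin genes gave 16 of 28 higher and 0 lower, with a median log2FC of 2.09 (15 of 29 and 1.59 without replicate 1 of 72 hpf), and 10 without replicate 2 of 48 hpf. *krt18a.1* (ENSDARG00000018404), a keratin of simple epithelia, rose from 433, 487 and 212 CPM to 1937, 1458 and 959 CPM, a log2FC of 1.94 (SE 0.50, padj = 0.019), and *krt94* (ENSDARG00000044975) from 252, 327 and 95.3 CPM to 1596, 985 and 411 CPM (log2FC 2.15, padj = 0.032). Both calls depended on the libraries used (*krt18a.1*, padj = 0.079 without replicate 1, 0.054 without replicate 2 and 0.091 without replicate 3 of 48 hpf and 0.051 without replicate 2 of 72 hpf, and *krt94*, padj = 0.10 without replicate 1, 0.061 without replicate 2 and 0.11 without replicate 3 of 48 hpf, 0.072 without replicate 2 of 72 hpf and 0.061 with total counts). The calcium-binding *icn* (ENSDARG00000009978), at 2537, 512 and 256 CPM at 72 hpf, was called with all 6 libraries (log2FC 2.53, padj = 0.043) and in only 1 of the 6 fits without 1 library (padj = 0.094 without replicate 1, 0.12 without replicate 2 and 0.15 without replicate 3 of 48 hpf, 0.077 without replicate 1 and 0.056 without replicate 2 of 72 hpf and 0.063 with total counts), with a log2FC of 0.96 without replicate 1 of 72 hpf. *krt8* (ENSDARG00000058358) did not pass (log2FC 1.03, padj = 0.14).

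Genes of DNA replication and the cell cycle were lower at 72 hpf. Of 51 tested, 28 fell and 0 rose, with a median log2FC of -1.21, and 39 fell with -1.21 without replicate 1 of 72 hpf. Their summed level was 8376, 8544 and 8079.7 CPM at 48 hpf and 4413, 4071 and 2322 CPM at 72 hpf, and the stages did not overlap. *mki67* (ENSDARG00000091150), a protein of cycling cells, fell from 791, 906 and 742 CPM to 49.2, 185 and 148 CPM, a log2FC of -2.67 (SE 0.55, padj = 0.0088), in every fit without 1 library. A gene for the ribonucleotide reductase subunit, *RRM2* (ENSDARG00000078069), fell from 595, 426 and 505 CPM to 257, 174 and 80.5 CPM, a log2FC of -1.58 (SE 0.50, padj = 0.037), and a second copy (ENSDARG00000020711) had a log2FC of -1.29 (padj = 0.044).

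The clamp protein gene *PCNA* (ENSDARG00000054155) was at 942, 797 and 848 CPM and 926, 500.1 and 236 CPM, where replicate 1 of 72 hpf was at the 48 hpf level. It did not pass with all 6 libraries (log2FC -0.64, padj = 0.36) and did without that replicate (log2FC -1.28, padj = 0.017). The count of 28 became 9 without replicate 1, 9 without replicate 2 and 12 without replicate 3 of 48 hpf and 17 without replicate 3 of 72 hpf, and the *RRM2* calls were lost in most fits (for the higher one, padj = 0.13 without replicate 1, 0.077 without replicate 2 and 0.11 without replicate 3 of 48 hpf and 0.095 without replicate 2 and 0.055 without replicate 3 of 72 hpf, and for the second, padj = 0.12 without replicate 1, 0.098 without replicate 2 and 0.15 without replicate 3 of 48 hpf and 0.070 without replicate 2 and 0.078 without replicate 3 of 72 hpf).

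The medians of the ribosomal, respiratory and mitochondrial lists depended on replicate 1 of 72 hpf, and their counts depended on other libraries as well. Of 76 cytosolic ribosomal protein genes, 3 rose and 0 fell, with a median log2FC of 1.28, and without that library 2 rose and 2 fell, with a median of -0.22. The summed level was 17436, 12315 and 17416 CPM at 48 hpf and 80554, 17117 and 10211 CPM at 72 hpf. *RPL19* (ENSDARG00000013307) had 909, 606 and 874 CPM and 4454, 830.4 and 530.0 CPM (log2FC 1.28, padj = 0.21), *RPS2* (ENSDARG00000077291) a log2FC of 1.1 (padj = 0.21) and *RPL3* (ENSDARG00000003599) of 0.15 (padj = 0.82). *RPLP0* (ENSDARG00000051783) passed only without replicate 1, as a fall of log2FC -0.97 (padj = 0.029). The 3 rising genes became 0 without replicate 1, 0 without replicate 2 and 0 without replicate 3 of 48 hpf and 28 without replicate 3 of 72 hpf.

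Oxidative phosphorylation genes, nuclear genes of the respiratory chain, gave 41 of 92 higher and 0 lower with a median log2FC of 2.19, and 27 and 0 with 0.61 without replicate 1 of 72 hpf. The 41 became 4 without replicate 1, 4 without replicate 2 and 3 without replicate 3 of 48 hpf, 27 without replicate 1 and 75 without replicate 3 of 72 hpf and 20 with total counts. The most expressed members, which encode ATP synthase subunits, did not pass: *ATP5F1B* (ENSDARG00000070083) was at 601, 549 and 582 CPM and 926, 812 and 508 CPM (log2FC 0.38, padj = 0.49), *ATP5F1A* (ENSDARG00000010149) had a log2FC of -0.38 (padj = 0.44), *ATP5F1C* (ENSDARG00000045514) of 1.53 (padj = 0.097) and *atp5mc1* (ENSDARG00000056008) of 1.71 (padj = 0.098). In the fit without replicate 1 of 72 hpf the last of these was 0.23, and without replicate 3 of 72 hpf it and *ATP5F1C* passed (padj = 0.040 and 0.036).

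Of 13 genes of the mitochondrial genome, 2 rose and 0 fell (median log2FC 0.94), and 2 rose and 2 fell without replicate 1 of 72 hpf (median -0.16). Of all genes tested, 19.8% were higher and 16.5% lower with all 6 libraries, so these counts were below the shares of all genes. The 2 became 1 without replicate 1, 1 without replicate 2 and 1 without replicate 3 of 48 hpf and 1 with total counts. The cytochrome oxidase gene *MT-CO1* (ENSDARG00000063905) was at 6130.1, 4221 and 7835 CPM and 4923, 2541 and 2619 CPM (log2FC -0.85, padj = 0.20) and fell without replicate 1 (log2FC -1.28, padj = 0.017). *MT-CO2* (ENSDARG00000063908), *MT-CO3* (ENSDARG00000063912) and *MT-CYB* (ENSDARG00000063924) had log2FC of 1.37, 1.46 and 1.59 with all 6 libraries, with padj of 0.21, 0.18 and 0.085, and *MT-CYB* passed without replicate 3 of 72 hpf (padj = 0.043).

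Genes induced by tissue dissociation, a sign of cell handling, moved with the stage as well. Of 25 such genes, 12 rose and 1 fell, with a median log2FC of 1.08 (19 and 1, 1.05 without replicate 1 of 72 hpf), and the summed level was 4798, 4527 and 3799 CPM at 48 hpf and 11083, 10204 and 8902 CPM at 72 hpf. The 12 became 1 without replicate 1, 5 without replicate 2 and 2 without replicate 3 of 48 hpf, 19 without replicate 1 and 7 without replicate 2 of 72 hpf and 6 with total counts. The immediate early gene *ier2a* (ENSDARG00000099195) rose from 249, 272 and 195 CPM to 2289.8, 1049 and 721 CPM, a log2FC of 2.5 (SE 0.54, padj = 0.010), and *jun* (ENSDARG00000043531) from 532, 475 and 314 CPM to 1251, 1184 and 854 CPM (log2FC 1.31, padj = 0.039). Neither was called in every fit (*ier2a*, with a log2FC of 1.85 without replicate 1 of 72 hpf, padj = 0.054 without replicate 1 and 0.059 without replicate 3 of 48 hpf, and *jun*, padj = 0.12 without replicate 1, 0.12 without replicate 2 and 0.17 without replicate 3 of 48 hpf, 0.099 without replicate 2 of 72 hpf and 0.12 with total counts). *fosaa* (ENSDARG00000040135) went the other way, from 13.6, 16.5 and 17.8 CPM to 1.45, 1.72 and 2.77 CPM, a log2FC of -2.99 (SE 0.40, padj = 0.0023), in every fit. *JUNB* (ENSDARG00000104773) and the chaperone gene *HSPA5* (ENSDARG00000103846) did not pass (log2FC 0.69, padj = 0.25, and 0.98, padj = 0.081), and *HSPA5* passed without replicate 1 of 72 hpf (padj = 0.019). The part of handling in the other lists was not tested.

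Whether a change was particular to GFP- cells was asked with the interaction of stage and fraction in all 12 libraries, the log2FC of GFP- minus that of GFP+. Of 23222 genes, 1324 (5.7%) had a positive and 573 (2.47%) a negative interaction at padj below 0.05 by edgeR's quasi-likelihood test, and in GFP+ cells 2652 (11.4%) were higher and 2671 (11.5%) lower at 72 hpf. With replicate 1 of 72 hpf left out of GFP-, 2655 genes had an interaction in place of 1897. The count was 1048 and 1075 without replicates 1 and 3 of GFP- at 48 hpf, 3564 without replicate 3 of GFP- at 72 hpf, 1055 and 1047 without replicates 1 and 3 of GFP+ at 48 hpf, and 1093, 967 and 1226 without replicates 1, 2 and 3 of GFP+ at 72 hpf. In a simulation of 12 such libraries, 200 of 23222 genes, all above 1 CPM in GFP- at 48 hpf, were changed. The interaction test recovered 0%, 11.9% and 54.5% of genes changed by 1, 2 and 3 on the log2 scale. More genes passed in the data, so these shares may understate recovery there, but differences of such size can be missed. The paper's methods describe a replicate as holding both fractions at both stages. The GFP- and GFP+ libraries of 1 replicate number may thus share a pool of hearts. The main test did not model that sharing. A fit with a block by replicate number, common to both stages, gave 2028 genes with an interaction in place of 1897.

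Among the heart's own cell types, cardiomyocyte and endothelial genes moved in opposite directions by median in the fractions. For cardiomyocyte genes the median log2FC was 1.99 in GFP- and -0.88 in GFP+ cells, and 7 of 16 had a positive interaction and 0 a negative one. *myl7* had an interaction of 3.79 (padj = 0.032, and 0.040 without replicate 1 of GFP- at 72 hpf), *actc1a* of 3.27 (padj = 0.024 and 0.027) and *tnnt2a* of 3.12 (padj = 0.036 and 0.046). In GFP+ cells alone these genes were not called (log2FC -0.62, -0.61 and -0.61, padj = 0.54, 0.45 and 0.47). The cardiomyocyte markers called there were *myh7*, *ttn.1* and *ttn.2*, which fell (log2FC -2.40, -1.99 and -1.99, padj = 0.031, 0.044 and 0.028). For endothelial and endocardial genes the medians were 0.78 and -1.0, with 8 of 29 positive and 0 negative. In GFP+ cells 11 endothelial markers fell and 1 rose. *acta2*, chosen for its size in GFP- cells, rose in both fractions, by 9.43 in GFP- and 4.31 in GFP+ on the log2 scale, with an interaction of 5.09 (padj = 0.0018), one of 3 among 11 smooth muscle genes. *fbln5* had a negative interaction of -2.06 (padj = 0.021), since its GFP+ log2FC was 6.91.

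Several other gene lists also differed between the fractions, and which cells their transcripts came from was not tested. Of the Hox genes, which pattern the body axis, 28 of 47 had a positive interaction and 0 a negative one, with medians of 0.67 in GFP- and -1.82 in GFP+ cells, where 28 fell. Of the liver genes, 18 had a positive interaction and 0 a negative one, with medians of 5.61 in GFP- and 0.52 in GFP+ cells. The summed liver level at 48 hpf was already 497 to 2017 CPM in GFP+ and only 16.0 to 47.2 CPM in GFP- cells. Phototransduction genes had 17 positive and 1 negative, skeletal muscle genes 12 and 0, leukocyte genes 8 and 0, and epidermis and keratin genes 7 and 0. Cell cycle genes had 0 and 0, with medians of -1.21 and -0.95, and neuron and synapse genes had 2 and 1, with -1.77 and -1.86. Notch pathway genes had 1 and 4, among them *her4.2*, with a log2FC of -2.36 in GFP- and 1.2 in GFP+ cells and an interaction of -3.56 (padj = 0.0069). *cx43.4* likewise had a log2FC of -1.75 in GFP- and -0.08 in GFP+ cells (interaction -1.69, padj = 0.012).

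**Figure D5:**
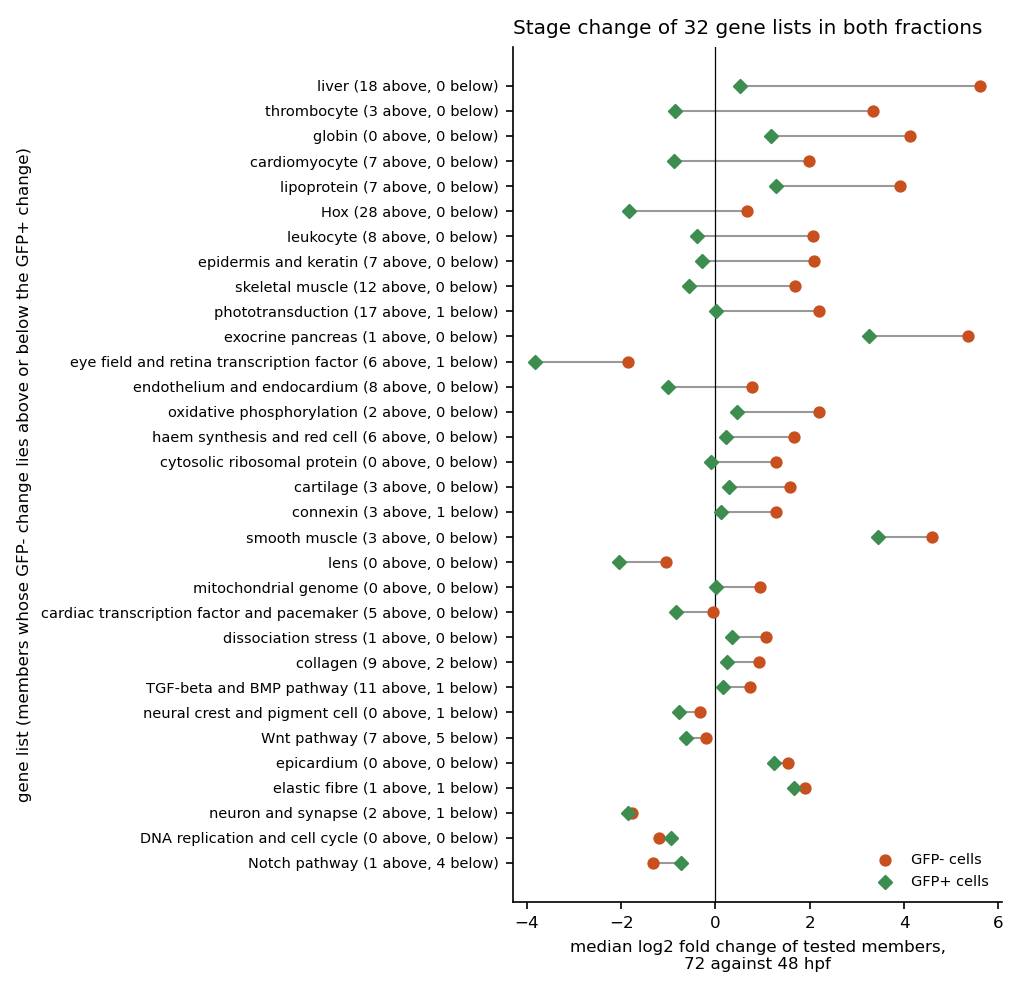
Median log2FC between 72 and 48 hpf of 32 gene lists in GFP- (circles) and GFP+ cells (diamonds), ordered by the difference. The labels give the number of members with a positive (above) or negative (below) interaction at padj below 0.05, as in Hox genes with 28 above and 0 below, liver with 18 above and 0 below and the cell cycle list with 0 and 0.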

How the data were processed

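RNA of sorted GFP- and GFP+ cells was sequenced with SMART-Seq v4 and Nextera XT libraries. Per the labels and methods, the authors made FASTQ files with bcl2fastq 2.16.0.10, trimmed them with cutadapt 1.17, quantified transcripts with Salmon 0.9.1 on GRCz11 and worked with DESeq2 1.29.13 in R 3.5.2. The authors deposited whole-number counts per gene for each library, not normalized, and these counts were the only values used. The authors' comparison tables were read only for gene names: of 27191 genes, 4186 were named from them, 21423 from a gene name table and 1582 had no name. Groups were taken from the labels. Among 66 pairs of libraries none was identical.

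The 6 GFP- libraries were tested with edgeR 4.0.16 in R 4.3.3 (TMM, filterByExpr, quasi-likelihood F-test, stage as the only term, Benjamini-Hochberg adjustment over all genes tested), and the interaction with fraction in all 12 libraries. CPM carry the TMM factors. Log2 CPM carry a prior count of 2, the fitted log2FC edgeR's default prior, and the SE of a log2FC was taken as its size over the root of the F statistic. Gene lists, some built on symbol patterns or aliases, were described by counts and medians without a set test. The genes named were the 10 largest rises and falls (called genes only, averaging log2 CPM 3 or more, with stages that do not overlap), the 4 most expressed members of each list, and members called against the majority of their list. Members and lists were chosen with earlier results of these data known. The test was tried on simulated counts with 200 changed genes. Alternatives were other scaling, filters, DESeq2 1.42.0, glmTreat, a replicate block, a fit of all 12 libraries and leaving out each library. Depth of 20530602 to 45035663 counts per library leaves genes under about 1 CPM in a group resting on few counts in some libraries, where fold changes are less certain. Figures were drawn with matplotlib 3.10.9.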

Additional observations from a re-analysis of the deposited data

Results flagged for a closer look

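For 8 of the 10 largest rises in GFP- cells the change with stage differed from that in GFP+ cells by the interaction test of edgeR's quasi-likelihood fit. These genes were chosen for the size of their log2FC in GFP- cells, which enters the difference, so their number is a description only. Over all genes the interaction passed for 1897 of 23222. The difference of the log2FC, GFP- minus GFP+, was 8.79 for *OPN1SW* (padj = 0.0013), 8.29 for *opn1sw2* (padj = 0.0018), 8.38 for *vipb* (padj = 0.045) and 6.59 for *uox* (padj = 0.0052). It was 6.1 for *apoa2* (padj = 0.0032), 5.15 for *spp1* (padj = 0.0018), 5.09 for *acta2* (padj = 0.0018) and 3.32 for *crip1* (padj = 0.046). Their log2FC in GFP+ cells were 0.73, 0.22, 0.50, 0.97, 1.24, 2.11, 4.31 and 3.99, in the same order. Without replicate 1 of GFP- at 72 hpf the adjusted p-values of these 8 were 0.00086, 0.00086, 0.062, 0.0034, 0.0015, 0.00096, 0.00096 and 0.042, so that *vipb* was no longer past the threshold. The other rises, *fbp2* and *GNGT2*, had differences of 3.18 (padj = 0.094) and 4.98 (padj = 0.26).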

How the results depend on the processing

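The counts of 4363 higher and 3615 lower genes became 2042 and 1279 when tested against a log2FC of 1 (glmTreat) and 2332 and 2149 with total counts, and ranged from 2017 to 4838 and from 1601 to 4214 with 1 library left out. DESeq2's Wald test gave 5663 and 4534, the fit of all 12 libraries 5614 and 4592, DESeq2 size factors 4423 and 3803, and scaling without the 10 most counted genes 4364 and 3618. With 10 counts in all libraries of a group as the filter 4473 and 3588 were called, and with no filter 4514 and 3650. The fit with a replicate block gave 3980 and 3821. The correlation of same-numbered deviations from the stage means was 0.0969, 0.303 and 0.000857 for replicates 1, 2 and 3. Between different numbers it ran from -0.279 to 0.151. With 3 libraries per group these values cannot settle whether same-numbered samples were paired. Under the block *col1a2*, *SLC17A7*, *MYOG*, *col2a1a*, *jun* and *RRM2* (ENSDARG00000020711) were no longer called. The 1897 genes with a stage change that differed between fractions became 3737 by DESeq2, 1186 with total counts and 2028 with the block, and 967 to 3564 with 1 library left out. *ID1* reversed from 0.55 to -0.98 (padj = 0.025) without replicate 1 of 72 hpf and to -1.10 (padj = 0.046) without replicate 1 of both stages, while it was 0.97 without replicate 3 of 72 hpf. The cause was not tested. Among all named genes and alternatives, 2270 values kept their call, 228 were no longer past the threshold, 43 newly passed and 2 reversed.

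Changes below a log2FC of 2 were seldom recovered in simulated counts, so a gene not called here was not shown to be unchanged. The independence of the libraries of 1 stage was not settled, the gate mixes cell types, and the eye, nerve, liver and muscle transcripts of the preparations could not be assigned to cells.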

Other observations

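Hox genes, which pattern the body axis and are active in hindbrain, pharyngeal and trunk mesoderm, mostly did not pass in GFP- cells. Of 47 tested, 11 rose (23.4%, against 19.8% of all genes) and 1 fell, with a median log2FC of 0.67 (11 and 1, 0.39 without replicate 1 of 72 hpf), and the 11 became 6 without replicate 1, 6 without replicate 2 and 6 without replicate 3 of 48 hpf and 7 with total counts. Their summed level was 520.3, 507 and 580.0 CPM at 48 hpf and 1597, 862 and 971 CPM at 72 hpf, so that the stages did not overlap. *hoxc3a* (ENSDARG00000070339) rose from 48.0, 43.6 and 43.9 CPM to 213, 118 and 152 CPM, with a log2FC of 1.83 (SE 0.38, padj = 0.0090), though not in 2 fits (padj = 0.054 without replicate 1 and 0.051 without replicate 3 of 48 hpf). *HOXB8* (ENSDARG00000056027), *HOXA3* (ENSDARG00000103862) and *HOXB5* (ENSDARG00000054030) did not pass (log2FC 0.31, 0.74 and 0.79, with padj of 0.57, 0.15 and 0.20), but each had a positive interaction, of 2.90 (padj = 0.015), 2.67 (padj = 0.016) and 3.34 (padj = 0.016). In GFP+ cells their log2FC were -2.62, -1.96 and -2.59, so that the difference came mostly from a lower level there. The hindbrain gene *hoxb1a* (ENSDARG00000008174) fell from 1.60, 2.22 and 3.25 CPM to 0.255, 0.775 and 0.643 CPM (log2FC -1.99, padj = 0.020), a call not made in 2 fits (padj = 0.055 without replicate 2 and 0.075 without replicate 3 of 48 hpf).

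Most neural crest and pigment cell genes did not pass. Of 18 tested, 4 fell and 2 rose (median log2FC -0.32, and -0.45 without replicate 1 of 72 hpf). Of all genes tested, 16.5% were lower and 19.8% higher, so these counts were near or below the shares of all genes. The 4 became 2 without replicate 1 and 2 without replicate 3 of 48 hpf and 2 without replicate 2 of 72 hpf. The 2 that rose encode purine enzymes. *pnp4a* (ENSDARG00000057575), a purine enzyme of iridophores, rose from 3.46, 4.56 and 5.37 CPM to 51.9, 25.9 and 53.6 CPM, with a log2FC of 3.30 (SE 0.43, padj = 0.0022). *xdh* (ENSDARG00000055240), xanthine dehydrogenase, rose from 0.251, 0.375 and 0 CPM to 2.72, 6.13 and 5.34 CPM (log2FC 4.46, padj = 0.0070, on 24 counts in all at 48 hpf). The crest and skin factor *TFAP2A* (ENSDARG00000059279) fell from 219, 173 and 275 CPM to 35.8, 21.1 and 115 CPM (log2FC -1.95, padj = 0.040, and padj = 0.096 without replicate 1, 0.074 without replicate 2 and 0.11 without replicate 3 of 48 hpf, 0.099 without replicate 2 of 72 hpf and 0.073 with total counts), while *SOX10* (ENSDARG00000077467) and *crestin* (ENSDARG00000105570) did not pass (log2FC -0.19, padj = 0.76, and -1.03, padj = 0.070), the latter passing only without replicate 3 of 72 hpf (padj = 0.031).

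Lens genes were led by 1 library. Of 51 lens genes 22 were tested, and 1 rose and 1 fell. Their summed level was 49.3, 230.3 and 37.9 CPM at 48 hpf and 61.8, 50.5 and 64.8 CPM at 72 hpf, and replicate 2 of 48 hpf stood above all others. The median log2FC was -1.05 with all 6 libraries and 0.50 without replicate 2 of 48 hpf. The beta crystallin gene *crybb1l1* (ENSDARG00000007576) was at 2.23, 28.5 and 3.57 CPM and 4.08, 2.84 and 6.02 CPM (log2FC -1.41, padj = 0.23).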
